A study of Mus musculus with 3 samples.

Results

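This report follows 10 genes that set the choice between absorptive and secretory fate in the intestinal epithelium, namely the Notch ligands Dll1, Dll4 and Jag1, the receptors Notch1 and Notch2, the Notch target Hes1 and the secretory transcription factors Atoh1, Spdef, Gfi1 and Neurog3. They were taken by symbol from the 32285 features counted in the sc-RNAseq data, and all 10 were found. The data came from organoids grown from mouse colon epithelium and comprised 3 libraries. In 1 the organoids were left untreated, and the others had IFN-γ added for 24 h or for 48 h. All organoids shared a full medium with R-spondin 1, Wnt, EGF, Noggin, a GSK3 inhibitor and a TGF-β receptor inhibitor, which keeps stem and progenitor cells growing and which the untreated library therefore received too. The organoids came from wild-type mice that had received no treatment. The study used young adult mice of both sexes and names C57bl/6 and a pair of Cre reporter strains as sources of organoids. Which strain, sex, age and number of mice stood behind each library was not given in the sources used here.

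In Notch signalling, a ligand on one cell binds a receptor on its neighbour, the receptor is cut, and its inner part enters the nucleus and switches on target genes such as Hes1. HES1 represses Atoh1, so a cell that receives Notch signal tends towards absorptive fate, whereas a cell that escapes it expresses Atoh1, carries ligand itself and becomes secretory. Downstream of ATOH1, SPDEF and GFI1 drive goblet cell maturation, and NEUROG3 commits cells to the enteroendocrine lineage.

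A barcode counted as a cell if it held 5000 or more unique molecular identifiers (UMIs, 1 per captured transcript) from 400 or more genes, with mitochondrial UMIs no higher than 15%. The untreated, 24 h and 48 h libraries gave 1058, 917 and 2934 such cells, with a median of 33550, 68784 and 10772 UMIs per cell. Since depth differed this much, levels are given as CPM, the UMIs of a gene per 1000000 UMIs pooled over the cells of a library. Where 3 values stand in a row, they are for the untreated, 24 h and 48 h library in this order. Each condition has 1 library, so no difference between conditions could be tested, and the 95% intervals given here cover counting error only. The cells were epithelial, with Epcam at 1435, 1463 and 1184 CPM. The epithelial list with it (6 of 6 genes measured) summed to 8035, 5960 and 5336 CPM. At each time 5 of the 6 were lower than untreated, beside 74.9% and 62.8% of all genes with 10 or more counts. The defining immune, endothelial and stromal genes Ptprc, Kdr and Col1a1 had no UMI in any library, although Acta2, a gene of smooth muscle and myofibroblasts, stood at 0.843, 10.9 and 17.1 CPM. The stromal list with it (2 of 8 genes measured) summed to 2.09, 11.4 and 18.0 CPM. Other genes of the immune list (2 of 8 measured) summed to 0.803, 0.169 and 0.360 CPM. Those of the endothelial list (3 of 8 measured) summed to 4.10, 1.90 and 3.13 CPM. The part of the stromal, immune and endothelial lists in the results was not tested. Treatment was visible in Irf1, an early IFN-γ target, at 23.5, 331 and 310 CPM. Any pair of libraries shared at most 4 cell barcodes. No doublets and no free RNA were taken out of the counts.

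All 10 genes are protein-coding, and their positions are given on mm10 (GRCm38, annotation GENCODE vM21). The ligand genes lie at chr17:15367354-15376872 (Dll1, minus strand), chr2:119325784-119335962 (Dll4, plus strand) and chr2:137081456-137116644 (Jag1, minus strand). The receptor genes lie at chr2:26457903-26516663 (Notch1, minus strand) and chr3:98013527-98150361 (Notch2, plus strand). Hes1 lies at chr16:30064384-30067796 on the plus strand. The secretory factors lie at chr6:64729125-64731245 (Atoh1, plus strand), chr17:27714352-27728955 (Spdef, minus strand), chr5:107716657-107726036 (Gfi1, minus strand) and chr10:62133090-62134763 (Neurog3, plus strand).

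The 250 bases before the RefSeq start site are shown for Atoh1 and Neurog3, the entry factors of the goblet and endocrine routes, and for Dll1 and Dll4, the ligands linked to secretory cells. Capitals mark the 6 letters of an E-box of the form CAGNTG, which proteins of the ATOH1 and NEUROG3 family bind, or of an N-box of the form CACNAG, which HES proteins bind. Sequences are from RefSeq on GRCm38.p6, 5′ to 3′ along the strand of the gene.
Atoh1, chr6:64728875-64729124, plus strand: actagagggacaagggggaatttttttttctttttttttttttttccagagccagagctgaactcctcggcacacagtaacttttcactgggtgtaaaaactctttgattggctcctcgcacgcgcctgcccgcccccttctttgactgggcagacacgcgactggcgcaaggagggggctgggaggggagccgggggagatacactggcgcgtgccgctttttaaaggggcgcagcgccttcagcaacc
Neurog3, chr10:62132840-62133089, plus strand: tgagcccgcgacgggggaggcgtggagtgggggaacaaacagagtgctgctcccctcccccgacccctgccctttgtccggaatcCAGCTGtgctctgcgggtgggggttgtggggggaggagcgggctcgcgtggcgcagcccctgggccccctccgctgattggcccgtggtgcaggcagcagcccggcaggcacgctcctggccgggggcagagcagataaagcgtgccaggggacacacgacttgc
Dll1, chr17:15376933-15377182, minus strand: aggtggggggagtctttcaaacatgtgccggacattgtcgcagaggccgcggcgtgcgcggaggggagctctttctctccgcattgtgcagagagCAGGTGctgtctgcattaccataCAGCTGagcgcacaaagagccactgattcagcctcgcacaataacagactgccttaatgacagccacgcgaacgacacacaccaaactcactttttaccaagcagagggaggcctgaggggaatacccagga
Dll4, chr2:119325534-119325783, plus strand: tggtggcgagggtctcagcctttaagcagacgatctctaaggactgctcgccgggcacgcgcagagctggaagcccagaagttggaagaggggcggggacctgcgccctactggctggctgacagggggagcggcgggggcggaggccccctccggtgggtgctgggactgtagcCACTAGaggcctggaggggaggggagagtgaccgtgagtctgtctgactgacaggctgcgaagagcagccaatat

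The window of Dll1 held 2 E-boxes, starting 155 and 132 bases before the start site, that of Neurog3 held 1 E-box at 165 bases, and that of Dll4 held 1 N-box at 75 bases. Over both strands, 4 of the 9 listed members had an E-box in these 250 bases (Dll1, Jag1, Gfi1 and Neurog3), beside 44.8% of 32851 promoters of all genes, and 3 had an N-box (Notch1, Notch2 and Dll4), beside 36.7%. Members were counted by gene and all genes by promoter. Dll1 and Gfi1 each had 2 listed promoters, of which 1 held an E-box. The letters TGGGAA, the core bound by the Notch nuclear partner RBPJ, were found only for Spdef among the 9, beside 21.6% of promoters. Hes1 had no listed promoter, so it is not among the 9 and was not searched for any of these forms. The STAT form TTCNNNGAA was found in none of the 9, beside 7.02% of promoters. The same 6 letters cannot match both the E-box and the N-box form, and a match describes the letters and not a bound site.

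The pooled level was lower than in untreated cells for 10 of 10 genes at 24 h and for 9 of 10 at 48 h, where Notch2 was the exception. Among all genes with 10 or more counts, 74.9% were lower and 25.1% higher at 24 h, and 62.8% were lower and 37.2% higher at 48 h. The medians of all genes were -0.46 and -0.18 on the log2 scale, so a lower level was in itself common. At least 2-fold lower levels were found for 6 of the 10 genes at both times, namely Dll4, Hes1, Atoh1, Spdef, Gfi1 and Neurog3, against 26.0% of all genes at 24 h and 16.6% at 48 h. None was at least 2-fold higher, against 3.46% and 5.26% of all genes. Both treated libraries were set against the same untreated library, so the values at 24 h and 48 h are given side by side and are not independent of each other. Scaling by TMM or DESeq2 factors in place of totals shifted every ratio up by 0.43 or 0.45 at 24 h and by 0.17 or 0.18 at 48 h. Under these factors Spdef at 24 h stood at -0.99 or -0.97, short of 2-fold, and Notch1 at 48 h stood at 0.11.

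**Figure D1:**
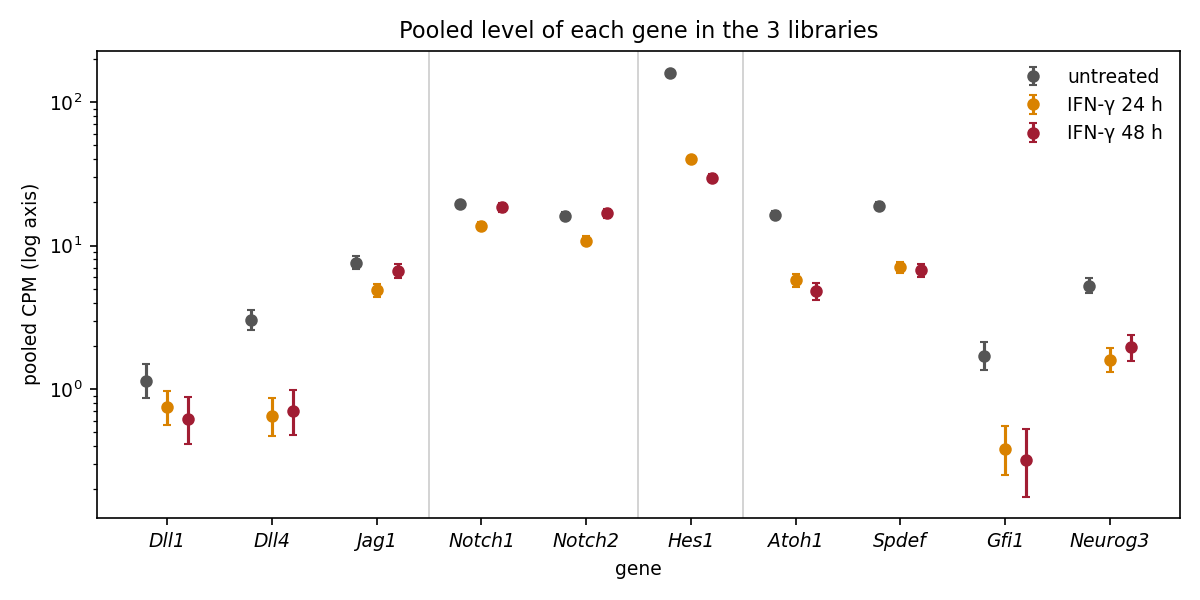
Pooled CPM of the 10 genes (log axis) in the untreated, 24 h and 48 h libraries, ordered as ligands, receptors, Hes1 and secretory factors, with exact 95% Poisson intervals for counting error. Hes1 is at 159 CPM untreated and at 40.4 and 29.7 CPM after IFN-γ, whereas Notch1 and Notch2 stay between 10.8 and 19.3 CPM.

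The 3 ligands differed in how far they were lower. Dll4, a Delta ligand of secretory cells in the crypt, stood at 3.03 CPM untreated, 0.647 CPM at 24 h and 0.699 CPM at 48 h, from 151, 46 and 33 UMIs. Its log2 ratio was -2.23 at 24 h (95% interval -2.74 to -1.74) and -2.12 at 48 h (-2.71 to -1.57). Dll1, the other Delta ligand there, was measured at only 57, 53 and 29 UMIs, or 1.14, 0.746 and 0.614 CPM. Its log2 ratios of -0.62 (-1.19 to -0.05) and -0.90 (-1.60 to -0.23) are imprecise, and the interval at 24 h takes in the all-gene median. Its ratio at 48 h was -1.74 as a mean over cells and -2.69 in cells under 20000 UMIs.

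Jag1, a Serrate-type ligand that is not tied to secretory cells, was closer to its untreated level. It stood at 7.59, 4.88 and 6.63 CPM, with log2 ratios of -0.64 (-0.85 to -0.42) at 24 h and -0.20 (-0.42 to 0.02) at 48 h. The interval at either time took in the all-gene median, and that at 48 h also included 0. In cells under 20000 UMIs, however, the ratio was -0.85 at 48 h and close to 0 at 24 h. In cells of 10000 to 20000 UMIs the ratio at 48 h was -1.22 (-1.76 to -0.66), and in cells of 20000 to 50000 UMIs it was -0.56 (-0.98 to -0.13).

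The receptors were the members that differed least from untreated cells. Notch1, a receptor of crypt stem and progenitor cells, stood at 19.3 CPM untreated, 13.6 after 24 h and 18.5 after 48 h. Its log2 ratio was -0.50 (-0.63 to -0.37), which takes in the median of all genes, and then -0.07 (-0.20 to 0.07). Notch2, a receptor with an overlapping role in the crypt, stood at 16.1, 10.8 and 16.7 CPM. Its log2 ratio was -0.58 (-0.72 to -0.43) at 24 h, which also takes in the median of all genes, and 0.06 (-0.09 to 0.20) at 48 h. At 48 h the interval of either receptor included 0, and the sign of both turned with the cells or the scaling chosen, from -0.57 to 0.11 for Notch1 and from -0.41 to 0.24 for Notch2.

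Hes1, the transcriptional repressor that Notch switches on, had the most UMIs of the 10 genes, with 7907, 2871 and 1405. Its level was 159 CPM untreated (155 to 162), 40.4 CPM after 24 h (38.9 to 41.9) and 29.7 CPM after 48 h (28.2 to 31.3). The log2 ratios were -1.97 (-2.04 to -1.91) and -2.42 (-2.50 to -2.33), below the all-gene medians. It was the member with the narrowest intervals, and across 13 other ways of filtering, scaling or selecting cells its log2 ratio ranged from -1.98 to -1.48 at 24 h and from -2.58 to -2.24 at 48 h. Barcodes with under 2000 UMIs, which hold mostly free RNA, also carried Hes1 at 120, 38.4 and 23.2 CPM, and the part of this RNA in the cell values was not tested.

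Atoh1, the factor needed for every secretory lineage, stood at 16.4 CPM untreated, 5.73 CPM at 24 h and 4.80 CPM at 48 h, from 816, 407 and 227 UMIs. Its log2 ratios were -1.52 (-1.69 to -1.34) and -1.77 (-1.99 to -1.56). The value at 48 h depended on depth, and in cells under 20000 UMIs it was -0.41. Hes1 and Atoh1, which oppose each other within a cell, were thus both at least 2-fold lower in the pooled cells. In pooled counts, fewer cells of a type and less RNA per cell cannot be told apart.

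Spdef, the goblet maturation factor, stood at 18.8, 7.03 and 6.71 CPM, with log2 ratios of -1.42 (-1.58 to -1.26) and -1.49 (-1.67 to -1.30), and -0.89 for the latter in cells under 20000 UMIs. Gfi1, which holds goblet precursors away from endocrine fate, was sparse, with 85, 27 and 15 UMIs or 1.71, 0.380 and 0.318 CPM. Its log2 ratios were -2.17 (-2.85 to -1.53) and -2.43 (-3.33 to -1.62). For both genes the untreated library was the highest, and the pooled levels at 24 h and 48 h lay within each other's intervals. For Spdef the ratio of 48 h over 24 h changed sign with depth, as given further on.

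Neurog3, the endocrine commitment factor, stood at 5.26, 1.60 and 1.95 CPM, with log2 ratios of -1.71 (-2.04 to -1.39) and -1.43 (-1.79 to -1.09). These values rest on few cells. The untreated library had 262 Neurog3 UMIs in 33 cells, of which 84 were in 1 cell, the 24 h library had 114 in 12 cells with 48 in 1 cell, and the 48 h library had 92 in 41 cells with 20 in 1 cell. Without the cell with the most Neurog3 UMIs in each library, the levels were 3.58, 0.929 and 1.52 CPM and the log2 ratios -1.95 and -1.23. In cells of 20000 to 50000 UMIs, with 13, 87 and 12 Neurog3 UMIs, it was higher at 24 h, at 3.90 (3.05 to 4.86). Over the alternatives listed in the closing section its ratio ranged from -3.11 to -0.55 at 24 h and from -2.77 to -0.59 at 48 h. The barcodes under 2000 UMIs held Neurog3 at 9.56, 3.28 and 4.97 CPM, above the cells of the same library, whereas the other 9 genes were lower there than in cells.

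**Figure D2:**
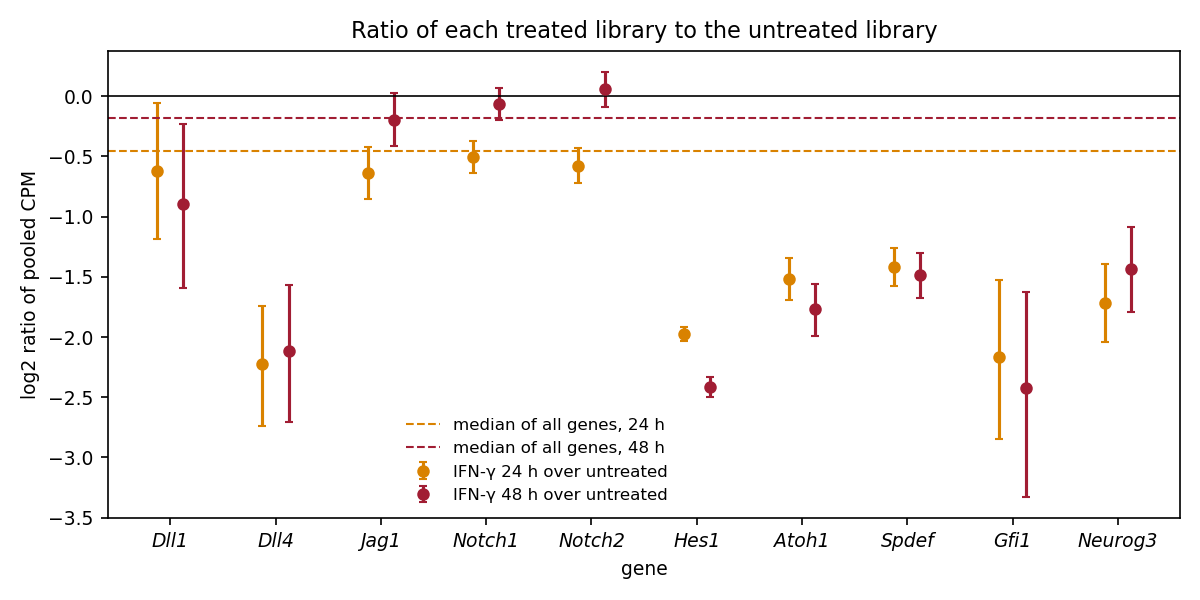
Log2 ratio of pooled CPM of each treated library over the untreated library, with exact 95% intervals for counting error; dashed lines are the medians of all genes at 24 h (-0.46) and 48 h (-0.18). Dll4, Hes1, Atoh1, Spdef, Gfi1 and Neurog3 lie at or below -1.42 at both times, and Notch1, Notch2 and Jag1 lie near the dashed lines.

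Between the treated libraries, 5 of the 10 genes were lower at 48 h than at 24 h and 5 were higher, beside 32.5% and 67.5% of all genes, whose median stood at 0.26 on the log2 scale. None was at least 2-fold lower or higher, beside 2.31% and 11.6% of all genes. Hes1 was lower at 48 h by a log2 ratio of -0.44 (-0.53 to -0.35). Atoh1 differed little, at -0.25 (-0.49 to -0.02). Notch1 at 0.44 (0.30 to 0.57), Notch2 at 0.64 (0.49 to 0.78) and Jag1 at 0.44 (0.22 to 0.67) were higher at 48 h in the pooled cells, and the intervals of the other 5 genes included 0. Ratios of Notch1, Notch2 and Jag1 within clusters are given further on. Depth moved with the differences of Notch1, Notch2, Jag1 and Atoh1, and also with those of Spdef and Neurog3. In cells under 20000 UMIs the ratio of 48 h over 24 h turned to -0.50 for Notch1, -0.40 for Notch2, -0.85 for Jag1 and 0.89 for Atoh1, whereas Hes1 stayed lower at -1.10. The Spdef ratio was -1.36 in cells of 5000 to 10000 UMIs and 1.25 in cells of 10000 to 20000. It was 0.93 in cells of 20000 to 50000 UMIs and -1.63 in deeper cells, and each interval excluded 0. The Neurog3 ratio was -5.43 in cells of 20000 to 50000 UMIs and 2.15 in deeper cells. Its intervals there excluded 0, and those in the shallower ranges included it.

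To compare shares of cells, each cell was thinned at random to 5000 UMIs. A Hes1 UMI was then found in 45.1% of untreated cells (42.1% to 48.1%), 19.8% at 24 h (17.3% to 22.6%) and 13.5% at 48 h (12.3% to 14.8%). Cells with 4 or more Hes1 UMIs after thinning numbered 72 of 1058, 6 of 917 and 3 of 2934. Before thinning, 81.4%, 69.9% and 31.8% of cells had a Hes1 UMI, at unequal depth. Thus both the share of cells with Hes1 and the share with several UMIs were lower in the treated libraries.

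After thinning, an Atoh1 UMI was found in 62 cells of the untreated library (5.86%), in 13 cells of the 24 h library (1.42%) and in 60 cells of the 48 h library (2.04%). The number of 24 h cells depended on the random draw, with 22.7 cells expected over all draws, beside 55.2 in the untreated library and 62.5 at 48 h. Spdef was found in 6.71%, 3.38% and 2.56% of cells. In goblet-like cells (a cluster described further on), Atoh1 was found in 32.1%, 14.8% and 8.68% of thinned cells and Spdef in 44.3%, 37.0% and 23.6%, at median depths before thinning of 42528, 58702 and 10272.5 UMIs. These came from 1 random draw. Over all draws the goblet-like shares were 28.6%, 17.5% and 10.0% for Atoh1 and 43.4%, 30.5% and 23.4% for Spdef. In colonocyte-like cells, which should lack secretory factors, Atoh1 was found in 0.763%, 0% and 1.10% of thinned cells and Spdef in 0.763%, 0% and 0.552%, at median depths of 48776, 65611 and 18862 UMIs. The 0 at 24 h came from 1 random draw, and over all draws the shares there were 0.465% for Atoh1 and 0.639% for Spdef. For the receptors the shares stayed close, with Notch1 in 9.55%, 8.29% and 9.27% of cells and Notch2 in 10.7%, 7.09% and 8.73%. Jag1 was found in 4.25%, 3.16% and 3.65% of cells. Dll1, Dll4, Gfi1 and Neurog3 were each found in under 2% of thinned cells of every library.

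To see which cells carried each gene, the cells of the 3 libraries were clustered without the 10 genes. Cluster 4 was goblet-like, led by Spink4, Muc2 and Sval1, and held 131, 81 and 242 cells. Cluster 5 was colonocyte-like, led by Krt20, Slc26a3 and Car1, with 131, 75 and 181 cells. Cluster 6 was enteroendocrine-like, led by Chgb and Chga, with 30, 12 and 19 cells. Clusters 1 and 2 were led by cell cycle genes (Ube2c and Nusap1 in the first, Mcm4 and histone genes in the second). Clusters 0 (shallow cells, with Lgr5 among its leading genes), 3 (led by Edn1 and F3) and 7 (led by Gm26917, 9 to 26 cells) were left unnamed. Cluster 0 held 32.0%, 19.4% and 45.8% of the cells. A median of 15311, 15090 and 7274 UMIs in cluster 0 set it apart by depth from clusters 1 and 2. The differences between clusters are a description of the cells and were not tested. Since the goblet markers were themselves lower in the treated libraries (Muc2 at 205, 32.6 and 20.8 CPM), the cells assigned to cluster 4 may not be alike in the 3 libraries.

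The goblet-like cluster held a large part of the UMIs of Spdef, Gfi1, Atoh1 and the Delta ligands. It held 91.2%, 86.2% and 83.0% of the Spdef UMIs and 82.4%, 85.2% and 80.0% of the Gfi1 UMIs. Of the Dll4 UMIs, it held 55.6%, 52.2% and 57.6%, and of the Dll1 UMIs 52.6%, 32.1% and 41.4%. Its share of the Atoh1 UMIs was 74.9%, 53.8% and 34.8%. These shares also move with the number and depth of the cells in each cluster. At 48 h, cluster 1, which was led by mitotic genes, held as many Atoh1 UMIs as the goblet-like cluster, with 79 in each. As a level, this was 5.25 CPM in cluster 1 and 22.4 CPM in the goblet-like cluster. Barcodes with under 2000 UMIs carried Atoh1 at 10.4, 3.04 and 4.58 CPM, and the part of free RNA in these shares was not tested. As a level in untreated cells, the Delta ligands were not particular to the goblet-like cluster. Dll1 stood at 17.7 CPM in enteroendocrine-like cells, from 10 UMIs with 6 in 1 cell, against 4.52 CPM in goblet-like cells. Dll4 stood at 10.6 CPM, from 6 UMIs, against 12.7 CPM. In the treated libraries the enteroendocrine-like cells had 0 Dll1 UMIs, and 2 and 1 Dll4 UMIs.

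**Figure D3:**
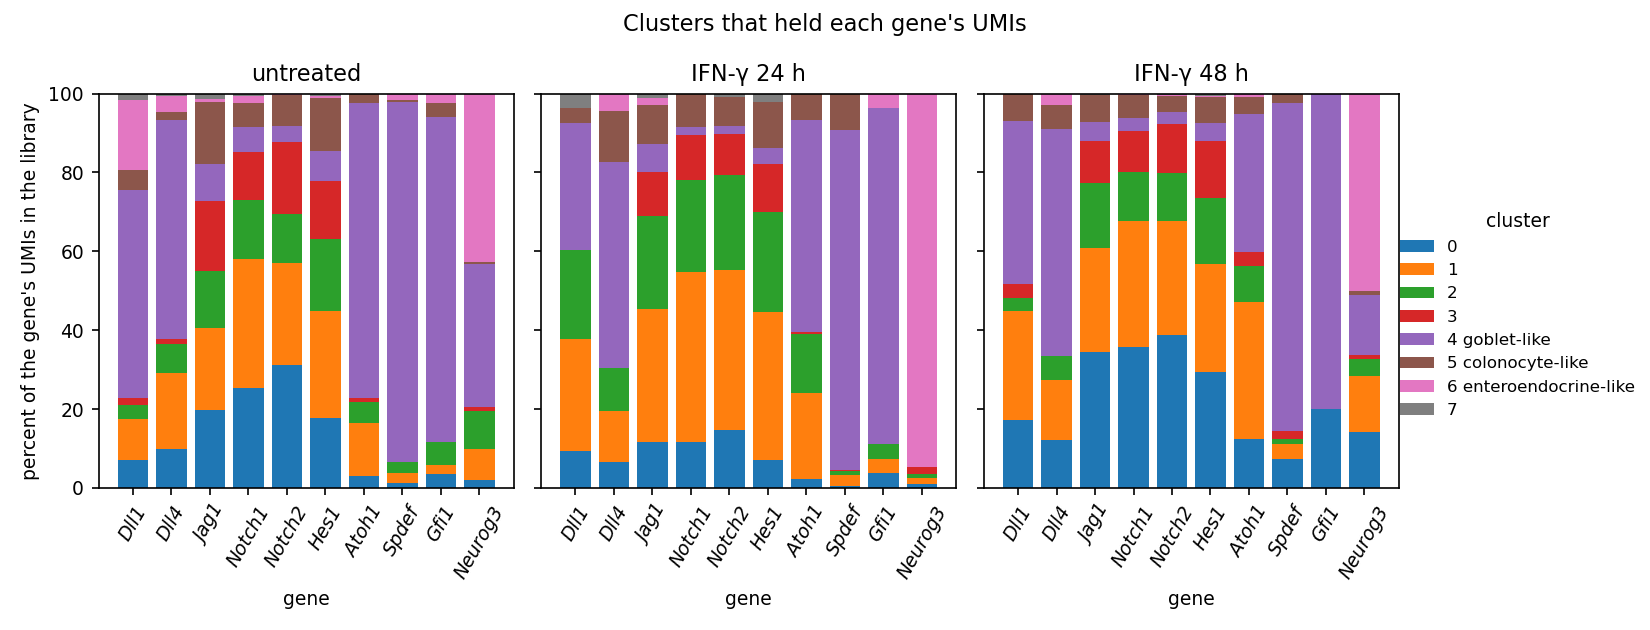
Percent of each gene's UMIs that lay in each of the 8 clusters, for the untreated, 24 h and 48 h libraries. The goblet-like cluster held 91.2%, 86.2% and 83.0% of Spdef UMIs but 74.9%, 53.8% and 34.8% of Atoh1 UMIs.

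Within goblet-like cells, Atoh1 stood at 92.1 CPM untreated, 46.2 at 24 h and 22.4 at 48 h. The log2 ratios were -0.996 (-1.23 to -0.77) and -2.04 (-2.40 to -1.70). Spdef differed less within these cells, at 129, 90.9 and 74.4 CPM with log2 ratios of -0.50 (-0.67 to -0.33) and -0.79 (-0.995 to -0.59). Thus, for Spdef, the pooled ratios of -1.42 and -1.49 were larger than those inside the cluster. The goblet-like cells were of mixed depth. At a higher clustering resolution, goblet markers were among the leading genes of a shallow and a deep cluster (medians of 14350.5 and 62514 UMIs untreated). The shallow one held 60, 30 and 157 cells and the deep one 73, 50 and 89. The part of this mix in the ratios of Atoh1 and Spdef was not tested. With each cluster's share of UMIs held at that in the untreated library, the pooled ratios were -0.51 and -0.78. A share of UMIs moves with both the number and the depth of the cells in a cluster. For Atoh1 the same calculation gave -0.96 and -1.46, for Dll4 -1.53 and -1.56, for Gfi1 -1.23 and -1.82, for Neurog3 -0.55 and -0.59, and for Hes1 -1.95 and -2.49. Held this way, 3 of the 10 genes were at least 2-fold lower at 24 h, beside 21.3% of all genes, and 4 at 48 h, beside 16.7%.

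Of the ligands, Dll4 was lower in goblet-like cells at both times. Dll4 stood at 12.7, 5.06 and 5.38 CPM there, with log2 ratios of -1.32 (-2.04 to -0.65) and -1.24 (-2.04 to -0.50). Dll1 stood at 4.52, 3.59 and 3.40 CPM, and both intervals of its ratio included 0. Gfi1 stood at 10.6, 4.85 and 3.40 CPM there. Jag1 stood at 5.28, 5.27 and 4.25 CPM there, from 35, 25 and 15 UMIs, and its intervals included 0. At 24 h its interval in these cells (-0.80 to 0.78) also took in its pooled ratio of -0.64.

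Receptor transcripts were sparse in goblet-like cells, and in untreated cells Notch1 was about as sparse in the colonocyte-like cluster. Averaged over all random draws, Notch1 was found in 3.89% of untreated goblet-like cells thinned to 5000 UMIs, and in 17.4% of the cells of cluster 0. For Notch2 these shares were 2.39% and 15.9%. In untreated colonocyte-like cells the shares were 3.39% for Notch1 and 5.18% for Notch2. Without thinning, the goblet-like cells held Notch1 at 9.35, 4.43 and 7.93 CPM, and cluster 0 held it at 39.0, 28.7 and 27.002 CPM. Notch2 stood at 4.97, 2.95 and 6.79 CPM in goblet-like cells and at 40.2, 28.2 and 26.5 CPM in cluster 0. In cluster 0 the log2 ratio of Notch1 was -0.44 (-0.78 to -0.12) and then -0.53 (-0.78 to -0.28), and that of Notch2 was -0.51 (-0.84 to -0.18) and then -0.60 (-0.85 to -0.35). In goblet-like cells the only interval of a receptor below 0 was that of Notch1 at 24 h (-1.08, -1.87 to -0.34). For 48 h over 24 h, the ratio in cluster 0 was -0.09 for Notch1 (-0.40 to 0.23) and Notch2 (-0.41 to 0.23). For Jag1 it was -0.11 (-0.64 to 0.45). Of 6 clusters with at least 10 counts, Notch1 was higher at 48 h in 4, Notch2 in 5 and Jag1 in 3. The part of cluster 0 in the pooled ratios was not tested.

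Hes1 was low in the secretory clusters of untreated cells, with 56.6 CPM in enteroendocrine-like and 92.4 CPM in goblet-like cells, against 144 to 225 CPM in clusters 0, 1, 2, 3 and 5. After treatment it was lower in each of the 7 clusters with at least 10 cells per library, at both times, and each interval lay below 0. At 24 h the log2 ratio lay between -2.14 in cluster 0 and -1.76 in cluster 3. The exception was the enteroendocrine-like cluster, where 0 UMIs were left against 32 untreated, with an upper interval limit of -2.35. With 3 counts put in place of 0, the level there was 6.63-fold lower. At 48 h the ratio lay between -2.65 in clusters 0 and 5 and -1.61 in the enteroendocrine-like cluster. Colonocyte-like cells had 149, 41.9 and 23.7 CPM, and goblet-like cells 92.4, 24.3 and 18.4 CPM. In the remaining cluster 7, with 14, 26 and 9 cells, Hes1 stood at 396, 310 and 140 CPM.

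The lower Hes1 level was also found at each depth. In cells of 5000 to 10000 UMIs, Hes1 stood at 238 CPM untreated, 113 CPM at 24 h and 36.2 CPM at 48 h. In cells of 50000 UMIs or more, it stood at 148, 38.6 and 24.4 CPM.

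Neurog3 differed between clusters in its direction. In the enteroendocrine-like cluster it stood at 198 CPM untreated, 307 at 24 h and 213 at 48 h, from 112, 108 and 46 UMIs in 11, 7 and 7 cells. The log2 ratio there was 0.63 (0.24 to 1.03) at 24 h and 0.11 (-0.42 to 0.61) at 48 h, and 1 cell held 64, 48 and 20 of these UMIs. The goblet-like cluster held a further 95 untreated UMIs, 84 of them in 1 cell, against 0 at 24 h and 14 at 48 h. With single cells holding this much of the count, counting error understates the uncertainty of Neurog3. In colonocyte-like cells Neurog3 had 1, 0 and 1 UMIs.

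**Figure D4:**
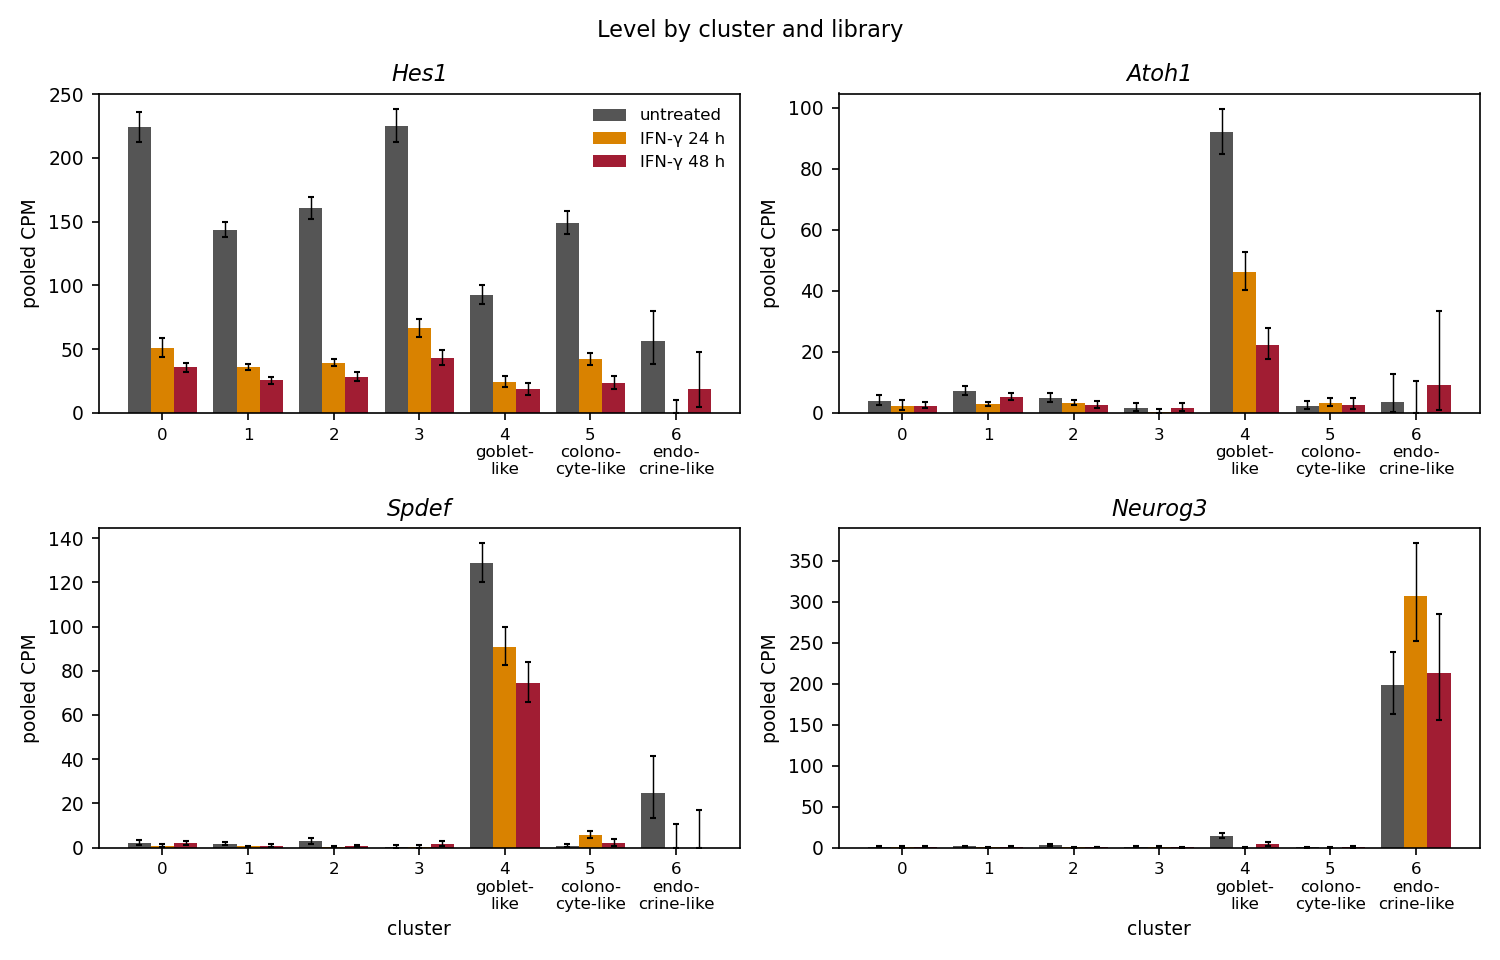
Pooled CPM of Hes1, Atoh1, Spdef and Neurog3 in clusters 0 to 6 for the untreated, 24 h and 48 h libraries, with exact 95% Poisson intervals for counting error (linear axes from 0, a different range in each panel). Hes1 is lower in the treated libraries in every cluster shown, Atoh1 and Spdef are highest in goblet-like cells, and Neurog3 is highest in enteroendocrine-like cells, with 198, 307 and 213 CPM.

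Spdef was measured outside goblet-like cells as well. In colonocyte-like cells at 24 h it had 46 UMIs against 5 untreated, or 5.69 against 0.699 CPM, but these 46 lay in 6 of 75 cells, and 1 cell held 18. In enteroendocrine-like cells it had 14 UMIs untreated and 0 in both treated libraries.

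Lateral inhibition pairs low Hes1 with high Atoh1 in single cells, so Hes1 was set against Atoh1 over thinned cells of each library. In untreated cells, Hes1 was found in 28 of 62 cells with an Atoh1 UMI (45.2%) and in 45.1% of cells without. This was 1 random draw, and in a second draw Hes1 was found in 24 of 60 cells with Atoh1 and in 45.1% of cells without. At 24 h it was found in 2 of 13 cells with Atoh1 and in 19.9% of cells without. At 48 h it was found in 3 of 60 cells with Atoh1 (5.0%, interval 1.04% to 13.9%) and in 13.7% of cells without (12.4% to 14.98%). In the second draw it was found in 2 of 24 cells with Atoh1 and 18.5% of cells without at 24 h. At 48 h that draw gave 6 of 67 cells and 14.3%. Averaged over all random draws, the shares with and without Atoh1 were 37.3% and 45.4% untreated, 13.9% and 19.1% at 24 h, and 9.16% and 14.1% at 48 h. Over other filters, thinning depths and draws, the share with Atoh1 was 0.399 to 1.44 times that without at 24 h. At 48 h it was 0.305 to 0.913 times. The size of the contrast thus depended on these choices, and at 24 h so did its direction. Pearson's r between the thinned counts over the cells of a library was -0.02, -0.02 and -0.04, over 1058, 917 and 2934 cells, and in counts this sparse such values say little.

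Hes1 was also compared between cell classes. Goblet-like cells had a Hes1 UMI in 29.8% of untreated cells (22.1% to 38.4%), against 47.2% of other cells (44.0% to 50.5%). At 24 h the shares were 14.8% (7.90% to 24.4%) and 20.3% (17.7% to 23.2%), with overlapping intervals. At 48 h they were 9.09% (5.79% to 13.4%) and 13.9% (12.6% to 15.3%), and the intervals again overlapped. Inside the untreated goblet-like cluster, cells with Atoh1 (14 of 42, 33.3%) and without (25 of 89, 28.1%) had overlapping intervals. Outside it, 14 of 20 untreated cells with Atoh1 had Hes1 (70.0%, interval 45.7% to 88.1%), against 46.7% of cells without (43.5% to 50.1%). At 48 h, 2 of 39 cells with Atoh1 outside the cluster had Hes1 (0.627% to 17.3%), against 14.0% of cells without (12.7% to 15.4%). The intervals outside the cluster overlapped as well, and this split was made in 1 random draw only.

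**Figure D5:**
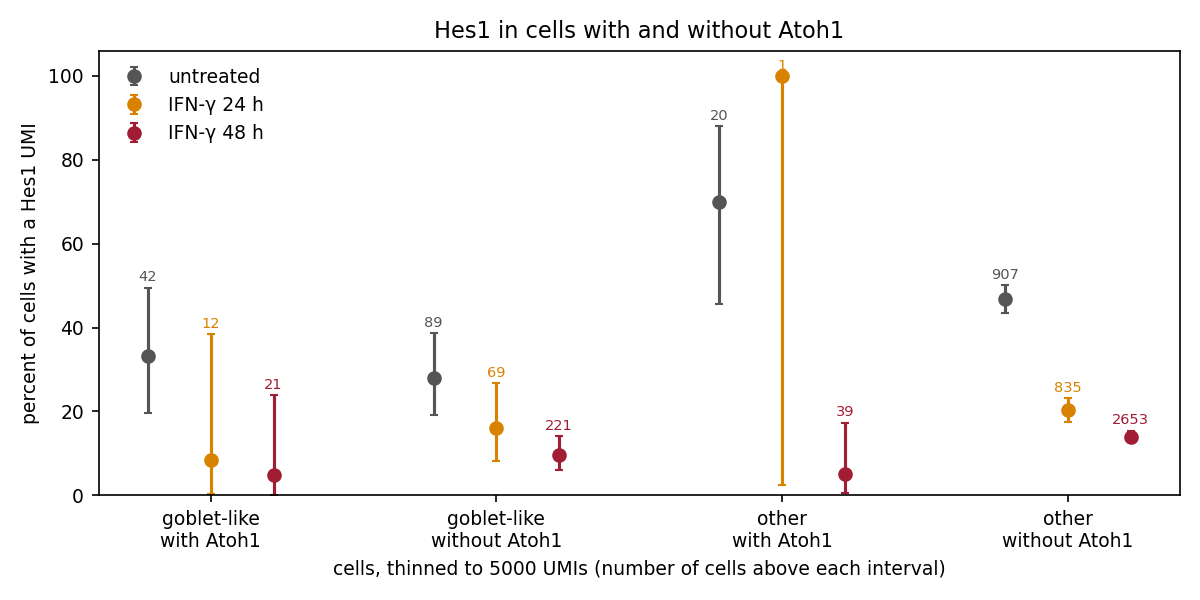
Percent of thinned cells with a Hes1 UMI, split by goblet-like cluster or other clusters and by whether the cell had an Atoh1 UMI, for the 3 libraries; bars are exact 95% binomial intervals and the number of cells stands above each. The untreated share is 33.3% and 28.1% in goblet-like cells and 70.0% and 46.7% in other cells, with overlapping intervals in both. The group of other cells with Atoh1 at 24 h holds 1 cell, and all shares are from 1 random draw.

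Some pairs of secretory genes were found together in the same cells. In the untreated library Spdef was found in 24 of 62 cells with Atoh1 (38.7%) and in 4.72% of cells without. The same pair was found in 4 of 13 cells at 24 h and in 10 of 60 cells (16.7%) at 48 h, against 2.99% and 2.26% of cells without Atoh1. Dll4 was found in 6 of 62 untreated cells with Atoh1 (9.68%) against 1.20% of cells without, and Gfi1 in 5 of 62 (8.06%) against 0.602%. Other pairs were not found. Neurog3 and Dll1 were each in 0 of the 62 untreated cells with Atoh1 (interval up to 5.78%), against 1.10% of cells without. After treatment Dll4 was in 0 of 13 and 0 of 60 cells with Atoh1, and Gfi1 was in 1 of 13 and 0 of 60. These pairs describe shared cells of 1 library and draw on few UMIs.

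The receptors were set against each other, Hes1 and the goblet factors in the same way. Notch2 was found in 20.8% of untreated cells with Notch1 (13.4% to 30.01%) and in 9.61% of cells without (7.82% to 11.7%). Hes1 was found in 63.4% of untreated cells with Notch1 (53.2% to 72.7%) and in 43.2% of cells without (40.0% to 46.4%). For Notch2 the shares with Hes1 were 50.4% (40.9% to 59.98%) and 44.4% (41.2% to 47.7%), with overlapping intervals. Of the untreated cells with a receptor UMI, 59 of 101 for Notch1 and 54 of 113 for Notch2 lay in cluster 0. Hes1 was found in 54.3% of the thinned cells of that cluster, and the receptor shares were not split by cluster. At 24 h the Hes1 shares by Notch1 were 22.4% and 19.6%, and at 48 h 16.2% and 13.2%, with overlapping intervals. In this draw Notch2 was found in 0 of 71 untreated cells with Spdef (interval up to 5.06%), against 11.4% of cells without. Atoh1 was found in 4.95% of untreated cells with Notch1 and in 5.96% of those without, with overlapping intervals.

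The genes most like each factor over cells were taken by the mean over the 3 libraries of Pearson's r of thinned log counts, among 9891 genes. For Spdef they were Fcgbp, Muc2, Tff3, Sval1 and Agr2, with r of 0.58, 0.56, 0.52, 0.48 and 0.51 in untreated cells. For Atoh1 they were Tff3, Spink4, Agr2, Sval1 and Muc2, with r of 0.46, 0.45, 0.43, 0.45 and 0.38 in untreated cells, and with r of 0.08 to 0.12 at 48 h. Neurog3 was nearest to Cacna1a, Tuba1a, Tox3, Hepacam2 and Ddc, with r of 0.05 to 0.28 in untreated cells. At 24 h, where 6 thinned cells had Neurog3, these r were 0.54, 0.51, 0.31, 0.25 and 0.45. Hes1 and Dll1 had no close companion, with a mean r of at most 0.13 for any gene, led by Hbegf and Fhod1. All values share the depth and cells of their library and are descriptions.

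The rest of the Notch pathway and of the secretory factors was taken from 7 lists with 70 genes. Of those with at least 10 counts, 54 of 62 were lower at 24 h and 42 of 60 at 48 h, or 87.1% and 70.0%, beside 74.9% and 62.8% of all genes. At least 2-fold lower were 18 (29.0%) at 24 h and 16 (26.7%) at 48 h, beside 26.0% and 16.6% of all genes. At least 2-fold higher were 4 genes at 24 h (Aph1c, Hes7, Pou2f3 and Neurod1) and 3 at 48 h (the same without Neurod1), beside 3.46% and 5.26%.

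The other receptors and ligands were little different or rare. Notch3 stood at 1.24, 0.929 and 1.65 CPM and Notch4 at 2.23, 1.76 and 2.48 CPM, and all intervals of their ratios to untreated included 0. Jag2 stood at 14.6, 11.5 and 12.8 CPM, and the Delta-like gene Dll3 had 19, 3 and 1 UMIs.

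Genes that modify and cut the receptors were 10 of 15 lower at 24 h and 7 of 15 at 48 h. Of all genes, 74.9% and 62.8% were lower, and the medians of this list were -0.25 and 0.08. Aph1c, a γ-secretase subunit, was the only one past 2-fold, at 1.45, 2.97 and 4.78 CPM with log2 ratios of 1.04 (0.65 to 1.44) and 1.73 (1.34 to 2.13). Mfng, a fucose-extending glycosyltransferase, stood at 0.482, 0.802 and 0.889 CPM. Aph1c and Aph1b are close copies, so reads shared between them make the value of each uncertain.

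Genes for ligand endocytosis and Notch inhibition were 8 of 8 lower at 24 h and 6 of 8 at 48 h. The shares of all genes were 74.9% and 62.8%, and the medians of this list were -0.82 and -0.30. Neurl1a, a ubiquitin ligase for Notch ligands, stood at 3.17, 0.872 and 2.98 CPM, with log2 ratios of -1.86 and then -0.09. Numb, which restrains the receptor, stood at 76.4, 36.1 and 61.4 CPM, with -1.08 and -0.31. Nrarp, itself a Notch target, stood at 6.63, 6.29 and 3.26 CPM, with -0.08 (-0.28 to 0.13) and -1.02 (-1.31 to -0.74), so it was close to untreated at 24 h and lower at 48 h.

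Of the nuclear genes, 12 of 13 were lower at 24 h and 9 of 13 at 48 h, beside 74.9% and 62.8% of all genes. Their medians were -0.68 and -0.33. Hes5, a further Notch target of the HES family, had 50, 23 and 10 UMIs, with log2 ratios of -1.63 (-2.41 to -0.89) and -2.25 (-3.39 to -1.25). Hes7 went the other way, with 20, 113 and 87 UMIs or 0.402, 1.59 and 1.84 CPM, and log2 ratios of 1.99 (1.29 to 2.75) and 2.20 (1.48 to 2.98). Hes2 had 11, 3 and 0 UMIs and Tle2, a corepressor, 15, 5 and 9. The Notch targets Hey1, Hey2 and Heyl, named after their values were seen, had at most 1 UMI in a library.

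Goblet factors were lower for 10 of 10 genes at 24 h and 9 of 10 at 48 h, beside 74.9% and 62.8% of all genes. Their medians were -0.75 and -0.82. Creb3l1, a membrane-bound transcription factor of secretory cells, stood at 37.7, 7.19 and 6.92 CPM, with log2 ratios of -2.39 and -2.45. Creb3l4 stood at 10.0, 2.08 and 2.26 CPM, with -2.27 and -2.15. Foxa2, at 13.5, 5.78 and 5.21 CPM, had ratios of -1.22 and -1.37. Klf4, a factor of goblet and surface cells, stood at 141, 70.6 and 42.9 CPM, with -1.003 and -1.72. Of the 10 goblet markers, 10 were at least 2-fold lower at both times, beside 26.0% of all genes at 24 h and 16.6% at 48 h. Among them was Muc2, the main gel-forming mucin. The absorptive side was lower too. At least 2-fold lower were 10 of 14 colonocyte markers at 24 h and 11 of 14 at 48 h, beside the same all-gene shares. Their medians were -2.77 and -2.32, beside -1.76 and -2.76 for the goblet markers. The markers and the factors were measured in the same cells and are not independent of each other.

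Endocrine and tuft factors were lower for 10 of 12 genes at 24 h and 9 of 10 at 48 h. Among all genes 74.9% and 62.8% were lower, and the medians of this list were -0.98 and -1.73. Rfx6, which acts after Neurog3, stood at 2.99, 0.563 and 0.783 CPM, with log2 ratios of -2.41 and -1.93. Lmx1a, a factor of serotonin-producing cells, stood at 5.14, 1.01 and 0.847 CPM, with -2.34 and -2.60. Pax6 had 21, 6 and 1 UMIs. The exceptions were Pou2f3, the tuft cell factor, at 1.41, 4.52 and 4.42 CPM with 1.68 (1.31 to 2.08) and 1.65 (1.26 to 2.07), and Neurod1, at 1.02, 2.81 and 0.720 CPM with 1.46 (1.01 to 1.93) and -0.51 (-1.18 to 0.15). The marker lists of these lineages were mixed. Of 10 enteroendocrine markers, 6 were lower and 4 higher at 24 h, beside 74.9% and 25.1% of all genes. At 48 h 8 were lower, beside 62.8% of all genes, and the medians were -0.16 and -0.86. The tuft markers measured were 5 of 8 at 24 h and 4 of 8 at 48 h, with medians of 0.81 and 0.21.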

How the data were processed

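Dissociated organoid cells were sorted with DAPI to remove dead cells and captured with 3′ v3 chemistry (10x Genomics). Reads were aligned by the authors to the mm10 build with Cell Ranger 6.0.1 (submitters' processing notes), and the deposited files hold UMI counts per gene and barcode without normalization. Strand, annotation release and removal of doublets were not given in the sources used here. Counts were summed over the kept cells of each library (49801935, 71077817 and 47243500 UMIs), scaled to CPM and compared as log2 ratios, with exact conditional binomial intervals for ratios, Clopper-Pearson intervals for shares and Poisson intervals for levels, all at 95%. A gene was called lower or higher at 2-fold. No test was made, since each condition has 1 library. Cells were clustered in Seurat 5.3.0 (CCA integration, 2000 variable genes without the 10 members, 20 principal components, resolution 0.5). A cluster was named from marker lists. The ratios and the thinning were run on simulated data. Counts for the ratios were drawn from the counting model that the intervals assume. They therefore cannot show the error from UMIs gathered in few cells. The alternatives were other filters, scalings, depths, seeds and resolutions. The members, lists and the rule for named genes (members, at most 3 genes of largest ratio per pathway list and comparison, markers, and 5 genes most like a factor) were chosen with earlier results of these data known.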

Additional observations from a re-analysis of the deposited data

How the results depend on the processing

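Of the values recomputed for the counts of members, the clusters, the pathway genes and Hes1 against Atoh1, 75 stayed within 1.5 times the main count or within the counting interval and 2 did not. These limits are wide where few cells were counted. At 24 h the Hes1 share with Atoh1 was 0.773 times that without, from 2 of 13 cells. With at most 10% mitochondrial UMIs it was 1.44 times, and this change of direction is among the 75. For single genes, 451 values stayed within the counting interval, 145 moved beyond it, and 4 reversed. With cluster shares of UMIs held at those of the untreated library, 3 members in place of 6 were at least 2-fold lower at 24 h (Hes1, Dll4 and Gfi1). This calculation removes differences in these shares, whether from cell numbers or from depth. With thinning to 3000 UMIs, the share of untreated cells with Hes1 among those with Atoh1 was 0.566 times that among cells without, with 30 Atoh1 cells. At 5000 UMIs it was 1.002 times in the draw reported, 0.887 times in a second draw and 0.822 times over all draws, so the draw alone moved it, and the cause of the rest was not tested. Between 48 h and 24 h, cells under 20000 UMIs gave reversed ratios of -0.50 for Notch1, -0.40 for Notch2, -0.85 for Jag1 and 0.89 for Atoh1. This choice, the cluster shares held fixed, the cells without cluster 0, the totals without 99 interferon-raised genes, the cells without the 1 with most UMIs of a gene and the shares expected over all draws were chosen after seeing the data. The 13 alternatives of filter, scaling and cell choice left all 10 members lower at 24 h, and 8 to 10 lower at 48 h. Split into 4 ranges of depth, Notch2 (0.19) and Jag1 (0.31) were higher at 24 h in cells of 5000 to 10000 UMIs, and Dll1 (0.02) and Neurog3 (3.90) in cells of 20000 to 50000. No paired analysis was possible because each condition has 1 library, and for the same reason no replicate could be left out. Dll1, Gfi1 and Neurog3 are limited by their counts.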
